A study of Mus musculus with 7 samples.

Results

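Genes of DNA replication and mitosis were followed in MuSCs (muscle stem cells) sorted by the Gli1 lineage label. The 49 genes came from a list of symbols, 25 of them assigned to S phase and 24 to G2 and M phase, and the question was how each phase compared between Gli1+ and Gli1- MuSCs. A row was found for 42 of the 49 among the 13280 rows of the count table, 22 of S phase and 20 of G2 and M phase. *Cdc6*, *Mcm10*, *Gins2*, *Cenpe*, *Cenpf*, *Cdk1* and *Kif11* were not analysed here.

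Both groups came from adult mice that carried Gli1-CreERT2; R26-tdT, uninjured and taken 3 days after TAM (tamoxifen). The mice are heterozygous for a Cre recombinase that is expressed from *Gli1* and, once tamoxifen is given, switches on the red fluorescent protein tdT permanently, so tdT records *Gli1* activity around the time of induction and not at the time of sorting. Cells of digested hindlimb muscle were gated as CD45-CD31-Sca1-VCAM1+ and split by tdT, which gave 4 tdT+ libraries (Gli1+ MuSCs) and 3 tdT- libraries (Gli1- MuSCs), all made from 1 ng of total RNA. The labels give the strain as C57BL/6 while the methods describe a mixed background with 129. The study calls its replicates biologically independent experiments, and how many mice went into a library is not stated, so the p-values measure the spread between these libraries.

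A cell that leaves quiescence first licenses its origins of replication by loading the MCM2-7 helicase, then makes nucleotides and copies its DNA in S phase. Genes of this step are switched on by E2F factors late in G1. Genes of chromosome condensation, the spindle and cell division follow in G2 and M phase, under B-Myb and FoxM1 with the MuvB core, and their transcripts are nearly absent from cells that are not cycling. Adult MuSCs in uninjured muscle are mostly quiescent. In a bulk library, fewer cycling cells and less RNA per cell cannot be told apart.

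The sequence before the genes of each phase was described first, since it does not depend on the reads. RefSeq windows of GRCm38.p6 from 250 bases before to 50 after a start were matched by symbol for 39 of the 49 members (43 windows). *Mcm4*, *Gins1*, *Gins2*, *Pole*, *Gmnn*, *Ccne2*, *Ccna2*, *Aurkb*, *Kif20a* and *Tpx2* had no window. The elements were searched on both strands. The cell cycle homology region, or CHR, to which the MuvB complexes bind was read as TTTGAA or TTCGAA, and it was in 18 of 22 G2 and M phase windows (81.8%), 3 of 21 S phase windows (14.3%) and 19.2% of all 32851 windows. An E2F site, read as TTTCCCGC, TTTCGCGC, TTTGCCGC or TTTGGCGC, was in 1 of 22 G2 and M phase windows (4.55%), 8 of 21 S phase windows (38.1%) and 2.26% of all windows. A CCAAT box, the site of the NF-Y factor, was in 90.9% of G2 and M phase windows, 66.7% of S phase windows and 37.4% of all windows. An E2F match on each strand can share its central bases, as in *Mcm5* and *Mcm6*. These matches are descriptions of letters and not of bound sites. In the 150 bases before the start the CHR was in 36.4% of G2 and M phase windows, against 9.70% of all windows, and the E2F site was in 14.3% of S phase windows against 1.24% of all windows.
Of the G2 and M phase members, *Mki67*, *Top2a* and *Cenpa* are shown because they shared 1 pattern of reads across the libraries, and *Ccnb2* because it was read in a single library. *Mcm5* and *Mcm6* are helicase subunits whose levels overlapped between the groups. Capitals mark CHR elements in the first 4 sequences and E2F sites in the other two, and each sequence runs 5′ to 3′ from 250 bases before the start to 30 after it. The windows are chr7:135716350-135716629 (minus strand), chr11:99024160-99024439 (minus strand), chr5:30666636-30666915 (plus strand), chr9:70421525-70421804 (minus strand), chr8:75109259-75109538 (plus strand) and chr1:128359676-128359955 (minus strand).
Mki67: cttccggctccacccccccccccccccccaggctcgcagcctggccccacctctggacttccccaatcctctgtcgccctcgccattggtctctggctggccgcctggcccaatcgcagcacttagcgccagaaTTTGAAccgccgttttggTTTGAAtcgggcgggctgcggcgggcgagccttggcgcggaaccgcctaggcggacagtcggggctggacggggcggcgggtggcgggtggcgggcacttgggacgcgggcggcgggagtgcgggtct
Top2a: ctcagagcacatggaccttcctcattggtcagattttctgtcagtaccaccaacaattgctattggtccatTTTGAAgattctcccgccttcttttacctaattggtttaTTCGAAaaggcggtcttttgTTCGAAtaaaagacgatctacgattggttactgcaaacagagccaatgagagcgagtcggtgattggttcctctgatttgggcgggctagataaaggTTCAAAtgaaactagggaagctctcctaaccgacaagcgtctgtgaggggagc
Cenpa: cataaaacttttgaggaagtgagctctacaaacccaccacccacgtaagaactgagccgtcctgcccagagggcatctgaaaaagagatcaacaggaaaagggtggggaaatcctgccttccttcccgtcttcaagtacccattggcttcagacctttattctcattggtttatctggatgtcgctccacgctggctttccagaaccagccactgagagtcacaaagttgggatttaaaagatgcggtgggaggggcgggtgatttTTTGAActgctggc
Ccnb2: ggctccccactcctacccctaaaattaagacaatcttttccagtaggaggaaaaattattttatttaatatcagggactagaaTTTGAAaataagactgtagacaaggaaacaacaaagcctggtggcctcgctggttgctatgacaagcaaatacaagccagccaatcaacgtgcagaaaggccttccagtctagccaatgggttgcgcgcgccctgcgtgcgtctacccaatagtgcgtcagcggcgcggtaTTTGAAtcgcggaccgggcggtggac
Mcm5: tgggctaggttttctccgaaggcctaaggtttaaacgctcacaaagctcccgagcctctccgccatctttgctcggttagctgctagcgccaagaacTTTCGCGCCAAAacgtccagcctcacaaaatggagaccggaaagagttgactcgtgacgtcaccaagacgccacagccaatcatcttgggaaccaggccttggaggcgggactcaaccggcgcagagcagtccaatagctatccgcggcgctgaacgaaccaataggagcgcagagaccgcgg
Mcm6: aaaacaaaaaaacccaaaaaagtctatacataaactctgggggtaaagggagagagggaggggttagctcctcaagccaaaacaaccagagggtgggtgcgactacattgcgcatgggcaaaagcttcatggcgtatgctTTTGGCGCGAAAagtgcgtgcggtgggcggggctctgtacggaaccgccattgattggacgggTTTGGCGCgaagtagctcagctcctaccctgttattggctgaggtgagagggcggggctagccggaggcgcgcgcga

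The libraries held 10595181 to 13781283 reads assigned to genes in Gli1+ MuSCs and 12808512 to 19662721 in Gli1- MuSCs, and 8579 to 10016 genes had a read in a Gli1+ library against 10829, 5471 and 6834 in Gli1- replicates 1, 2 and 3. A gene was mostly well covered or unread. Of the 294 values of the 42 members, 166 were 0, 0 lay between 1 and 9 reads and the median of the others was 174.5 reads, so a value of 0 does not show that a transcript was absent from the cells. Among genes at a mean of 2 to 10 CPM (reads scaled to library size with TMM) in the other libraries, 41.4% to 59.2% had no read in a Gli1+ library and 28.2%, 84.7% and 78.6% had none in Gli1- replicates 1, 2 and 3, so Gli1- replicates 2 and 3 read fewer low genes than the rest. All 10 MuSC markers were read in every library, at summed levels of 4720 to 6444 CPM in Gli1+ and 5368 to 6920 CPM in Gli1- MuSCs.

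G2 and M phase members were read more often in Gli1+ libraries than in Gli1- libraries, and much of that came from Gli1+ replicate 4. At least 1 read of 4, 7, 5 and 13 of the 20 members was found in Gli1+ replicates 1, 2, 3 and 4, against 5, 2 and 3 in Gli1- replicates 1, 2 and 3. For the 22 S phase members the numbers were 15, 16, 10 and 18 in the Gli1+ libraries, against 14, 9 and 7 in the Gli1- libraries. The groups overlapped in both phases, since Gli1- replicate 1, with the largest number of genes read, reached 5 G2 and M phase and 14 S phase members. The mean of G2 and M phase members read was 7.25 ± 4.03 in Gli1+ libraries (SD, n = 4) and 3.33 ± 1.53 in Gli1- libraries (SD, n = 3), and without Gli1+ replicate 4 the Gli1+ mean was 5.33. Gli1+ replicate 4 had a read of 9622 genes, which lay below the numbers in Gli1+ replicates 1 and 2 and Gli1- replicate 1 and above those in the other 3 libraries. The part of the number of genes read in these counts was not tested.

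**Figure D1:**
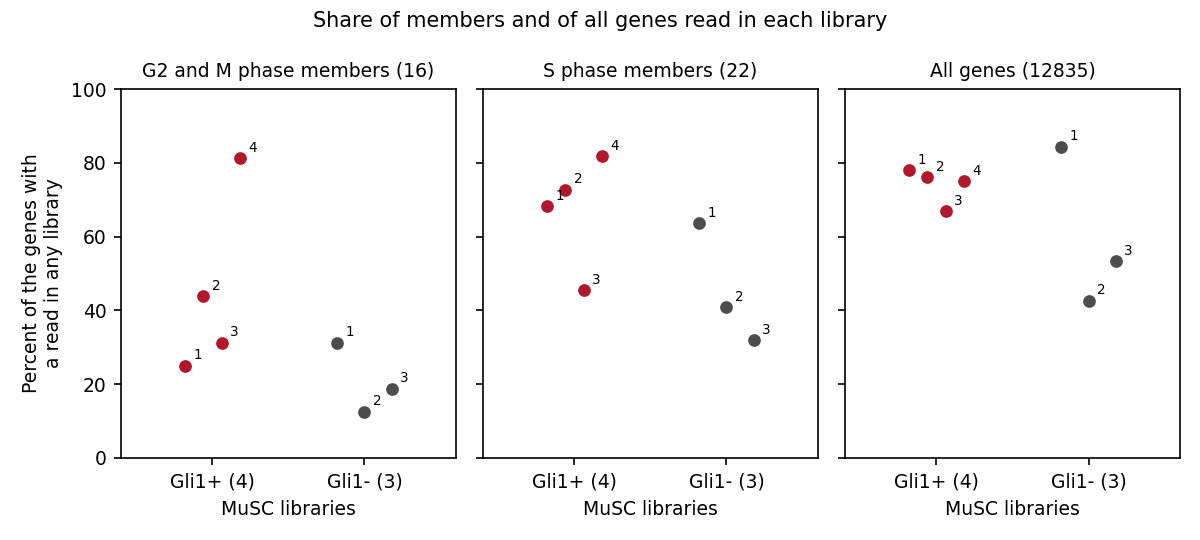
Percent of the genes with a read in any library that were read in each library, for G2 and M phase members (16), S phase members (22) and all genes (12835), with Gli1+ libraries left of Gli1- libraries and the replicate number beside each point. Gli1+ replicate 4 read 81.2% of the G2 and M phase members and 75.0% of all genes, whereas Gli1- replicate 1 read 31.2% and 84.4%.

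*Aurkb*, *Plk1*, *Birc5* and *Kif23* had a row and no read in any library. These encode a kinase and a regulator of the chromosomal passenger complex, the Polo-like kinase of mitotic entry, and a kinesin of the central spindle. A count of 0 allows up to 3 reads, which is 0.218 to 0.302 CPM in a Gli1+ library and 0.162 to 0.206 CPM in a Gli1- library. No molecular identifiers were counted, and such floors therefore cover counting error alone. No read in any Gli1- library was found for 10 of the other 16 G2 and M phase members and for 6 of the 22 S phase members, where 11.6% of all genes with a read had none in Gli1- libraries. Without Gli1+ replicate 4 these numbers were 5 and 3, and without Gli1- replicate 1 the number of S phase members was 11. Among the other genes described below, 12 of 32 of G2 and M phase (37.5%) had no read in any Gli1- library. The same held for 4 of 41 other S phase genes (9.76%), below the share of all genes. Reads in all 7 libraries were found for 1 G2 and M phase member, *Bub3*, and for the S phase members *Mcm2*, *Mcm4*, *Mcm6*, *Pcna* and *Rrm1*, where 29.2% of all genes had them.

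**Figure D2:**
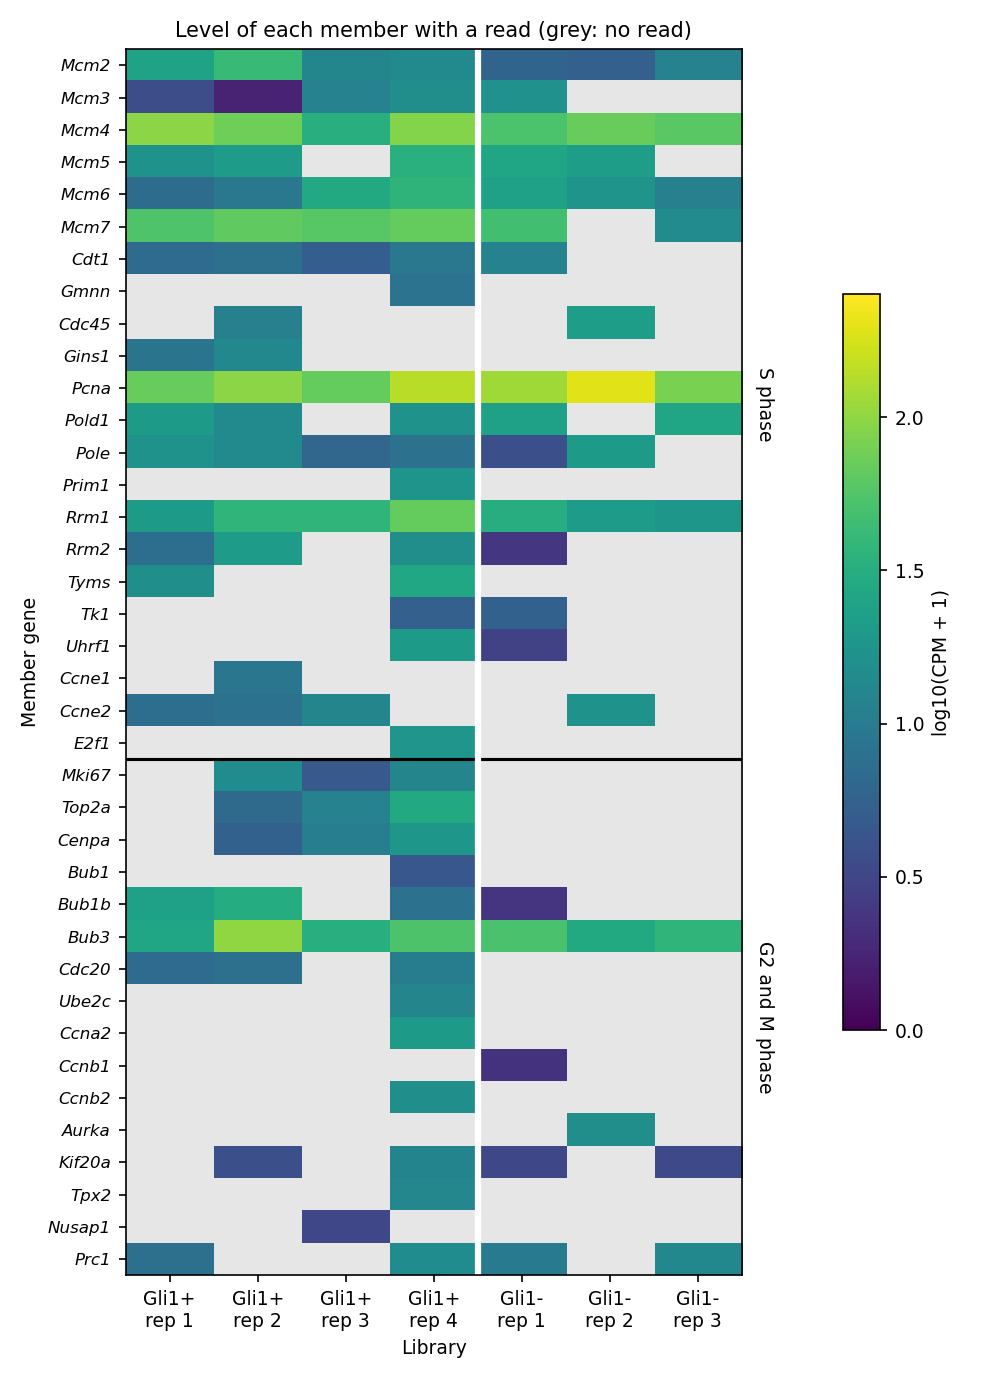
Level of the 38 members with a read, as log10(CPM + 1), in each library, with Gli1+ libraries left of Gli1- libraries, S phase members above the black line and G2 and M phase members below it. Grey cells had no read, and they fill most of the G2 and M phase block except in Gli1+ replicate 4, which read 13 of its genes.

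The groups were compared gene by gene in 26 members, 18 of S phase and 8 of G2 and M phase, that had at least 5 reads in at least 2 libraries. This filter kept 81.8% of S phase and 40.0% of G2 and M phase members with a row, against 83.8% of all rows. By the quasi-likelihood test of edgeR, adjusted over 11134 genes by the method of Benjamini and Hochberg, 0 members and 0 genes (0%) were called at an adjusted p under 0.05, and every member had an adjusted p of 1.00. At an unadjusted p under 0.05, 4 members were higher in Gli1+ MuSCs and 0 were lower, all 4 of G2 and M phase, where 1.53% of all genes were higher and 0.611% lower. DESeq2 called 0.593% of all genes (66) and 0 members, and its lowest adjusted p among the members was 0.250, for *Top2a*. Unadjusted, DESeq2 gave 6 members a p under 0.05, the 4 of edgeR's test together with *Tyms* and *Gins1*. The share of all genes at that p in DESeq2 is not given here. All 6 passed the filter through their Gli1+ reads alone, and a gene that does so has to be higher in that group. The 6 are therefore no added evidence beyond the 4. The count of 4 rested on most of the libraries, since leaving out replicate 2 or 4 of Gli1+ MuSCs or replicate 2 or 3 of Gli1- MuSCs gave 0, and leaving out Gli1+ replicate 3 or Gli1- replicate 1 gave 2. The biological coefficient of variation was 1.76 across all genes tested.

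The 4 members were *Top2a*, *Cenpa*, *Mki67* and *Cdc20*, none of which had a read in a Gli1- library. Values of a group stand in the order of its replicate numbers throughout, and gene coordinates are those of GRCm38. *Top2a*, the topoisomerase that untangles sister chromatids (ENSMUSG00000020914, chr11:98992943-99024189), was at 0, 5.82, 10.6 and 27.7 CPM in the Gli1+ libraries 1 to 4. *Mki67*, which coats mitotic chromosomes and is the usual marker of cycling cells (ENSMUSG00000031004, chr7:135689784-135716361), was at 0, 13.8, 3.73 and 11.5 CPM. *Cenpa*, the histone H3 variant of centromeres (ENSMUSG00000029177, chr5:30666777-30674830), was at 0, 4.59, 9.55 and 17.6 CPM. All 3 were thus unread in Gli1+ replicate 1 as in the Gli1- libraries, and read in each of the other Gli1+ libraries, a pattern shared by 31 of the 12835 genes with a read (0.242%). The pattern was taken from these 3 genes. It was found in 0 of 32 other G2 and M phase genes and 0 of 41 other S phase genes, lists described below. With 3 reads taken as the floor of every Gli1- library, the Gli1+ mean of *Top2a* was 59.1 times that floor. It was 42.6 times the floor for *Cenpa* and 38.9 times for *Mki67*. These ratios allow for counting error alone and are no lower bound on a fold, since a value of 0 does not show absence. The unadjusted p from edgeR's quasi-likelihood test was 0.0371 for *Top2a*, 0.0444 for *Cenpa* and 0.0457 for *Mki67*, with an adjusted p of 1.00 each.
*Cdc20*, the activator of the anaphase-promoting complex (ENSMUSG00000006398, chr4:118432901-118437352), was at 5.83, 6.70, 0 and 9.37 CPM in the Gli1+ libraries and unread in Gli1- libraries. Its Gli1+ mean was 29.4 times the same floor, again no lower bound, with an unadjusted p of 0.0496 from edgeR's quasi-likelihood test. It differed from the 3 genes above in being read in Gli1+ replicate 1 and not in replicate 3. Of its 31-base stretches, 26.7% also occur in other genes, mostly *Gm7856*. All 4 overlapped between the groups, because each had a Gli1+ library without a read. Among the members tested, 4 of 8 of G2 and M phase and 2 of 18 of S phase had no read in any Gli1- library, against 3.83% of all genes tested.

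The other checkpoint genes overlapped between the groups too. *Bub1b*, the checkpoint protein BubR1, was at 22.4, 29.4, 0 and 7.05 CPM in the Gli1+ libraries and at 1.30, 0 and 0 CPM in Gli1- replicates 1 to 3. Its log2 fold change was 5.05 (standard error 3.62, unadjusted p = 0.187, adjusted p = 1.00 in edgeR's quasi-likelihood test), and the groups overlapped in Gli1+ replicate 3. *Bub3*, the checkpoint adaptor, was at 25.6, 98.7, 31.6 and 53.0 CPM in the Gli1+ libraries, against 50.9, 28.0 and 36.5 CPM in the Gli1- libraries. Gli1+ replicate 2 stood highest and the other libraries were intermixed, with a log2 fold change of 0.44 (standard error 0.89) that was -0.068 without Gli1+ replicate 2. *Bub1*, a kinase of the same checkpoint, had 3.53 CPM in Gli1+ replicate 4 and no other read.

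The 4 mitotic cyclins and kinases with a read were each read in a single library. *Ccna2* and *Ccnb2*, the cyclins A2 and B2, stood at 19.1 and 14.7 CPM in Gli1+ replicate 4 and at 0 in the other 6 libraries. *Ccnb1*, cyclin B1, had 1.24 CPM in Gli1- replicate 1, and *Aurka*, the Aurora kinase of the spindle poles, had 14.4 CPM in Gli1- replicate 2. Neither was read in a Gli1+ library. Among spindle and cytokinesis genes, *Tpx2*, a spindle assembly factor, had 11.9 CPM in Gli1+ replicate 4, and *Nusap1*, which bundles spindle microtubules, had 2.27 CPM in Gli1+ replicate 3. *Ube2c*, the ubiquitin-conjugating enzyme of the anaphase-promoting complex, had 11.3 CPM in Gli1+ replicate 4. *Kif20a* and *Prc1*, a kinesin of cytokinesis and a bundler of the central spindle, were read in both groups with log2 fold changes of 1.12 and -0.47 (standard errors 3.38 and 3.18). No source used here says if reads were counted by strand, and 510 exonic bases of *Ccna2*, 592 of *Ube2c*, 1271 of *Kif20a* and 911 of *Prc1* overlap *Exosc9*, *Tnnc2*, *Cdc23* and *Rccd1* on the other strand. Reads of each pair cannot be told apart there, and 27.8% of the 31-base stretches of *Ccnb1* also occur in other genes, mostly its pseudogene.

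Gli1+ replicate 4 was the sole library with a read of 8 members, *Ccna2*, *Ccnb2*, *Bub1*, *Ube2c*, *Tpx2*, *E2f1*, *Gmnn* and *Prim1*. They were 5 of 16 G2 and M phase members and 3 of 22 S phase members, whereas 2.25% of all genes with a read (289) were read in that library alone. Each of the other libraries was the sole one for 0 or 1 members. A longer list of 46 other G2 and M phase genes, which holds no member, was looked at in the same way. Of the 32 with a read, 7 (21.9%) were read in Gli1+ replicate 4 alone, and each of the other 6 libraries was the sole one for 0 or 1. These 7, named after their values were seen, were *Nuf2*, *Spc24*, *Ncapg*, *Ckap2l*, *Kif22*, *Ect2* and *Hmmr*, genes of the kinetochore, condensin, spindle and cytokinesis. Of 41 other S phase genes with a read, 0 were read in Gli1+ replicate 4 alone. Gli1+ replicate 4 also held the highest sum of 10 FAP (fibro-adipogenic progenitor) and fibroblast markers, 10223 CPM against 2902 to 6871 CPM in the other Gli1+ libraries and 3101 to 5045 CPM in Gli1- libraries. Its tenocyte (521 CPM) and Schwann and glial markers (256 CPM) summed to less than in Gli1+ replicate 3 (586 and 322 CPM). Both sums were above those of all remaining libraries, highest in Gli1- replicate 2 (148 and 183 CPM). Its endothelial (386 CPM), pericyte and smooth muscle (1511 CPM), mature myofibre (55.3 CPM) and immune markers (163 CPM, 2 of 10 read) summed to values within the range of the other libraries. Of the 10 FAP and fibroblast markers, 9 were read in Gli1+ replicate 4, and *Col1a1*, *Col3a1*, *Gsn* and *Dpt* were higher there than in any other library. The others read there, *Dcn*, *Lum*, *Ly6a*, *Mfap5* and *Clec3b*, were lower there than in Gli1+ replicate 3. *Pdgfra*, which defines FAPs, had no read in Gli1+ replicate 4, nor in 3 of the other 6 libraries. The immune markers read in it were *Lyz2* and *Fcer1g*, at 151 and 12.2 CPM, each the highest value of the 7 libraries, and *Ptprc*, which defines blood cells, was read in Gli1+ replicate 3 alone. The part of other cell types in these values was not tested.

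**Figure D3:**
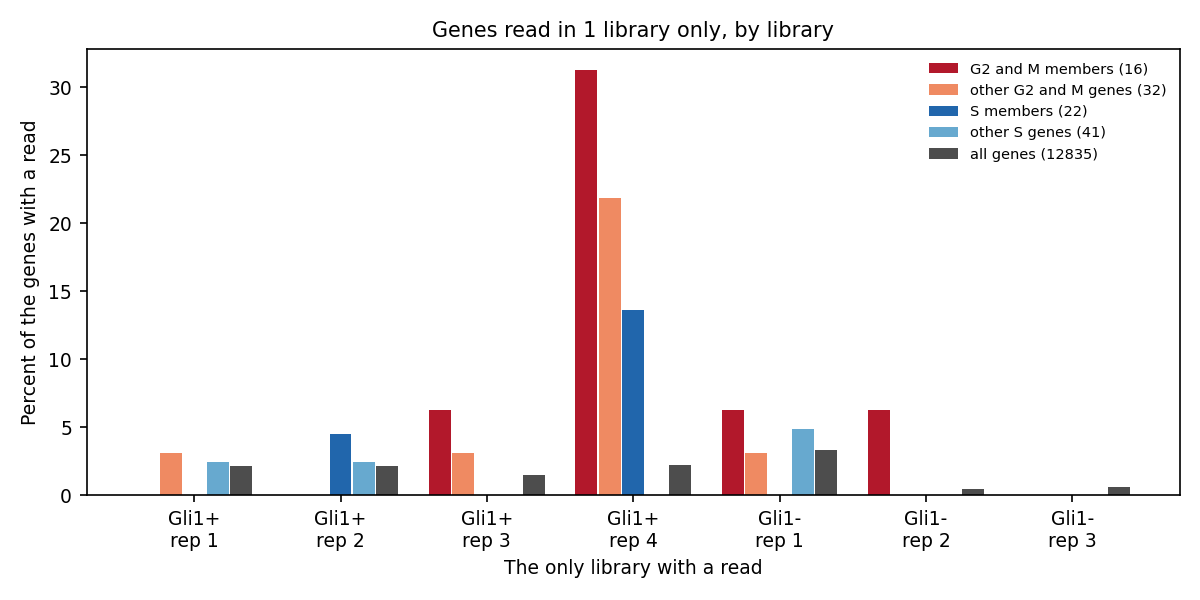
Percent of the genes with a read that were read in 1 library alone, for each library, in G2 and M phase members (16), other G2 and M phase genes (32), S phase members (22), other S phase genes (41) and all genes (12835). In Gli1+ replicate 4 the bars reach 31.2% for G2 and M phase members and 21.9% for other G2 and M phase genes, against 2.25% for all genes.

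S phase members were read in more libraries and their groups overlapped, apart from 2 helicase subunits. *Mcm2* (ENSMUSG00000002870, chr6:88883474-88898780) was at 23.1, 40.8, 11.6 and 13.1 CPM in the Gli1+ libraries and at 4.92, 4.40 and 10.6 CPM in Gli1- replicates 1 to 3. *Mcm7* (ENSMUSG00000029730, chr5:138164583-138172422) was at 53.4, 63.6, 58.8 and 67.7 CPM in the Gli1+ libraries and at 45.8, 0 and 13.3 CPM in the Gli1- libraries. Each was higher in all 4 Gli1+ libraries than in any Gli1- library, but by a narrow margin, between 11.6 and 10.6 CPM for *Mcm2* and between 53.4 and 45.8 CPM for *Mcm7*. Thus 2 of the 26 members were higher in every Gli1+ library and 0 were lower in every one, against 2.87% (320) and 0.934% (104) of all genes tested. The log2 fold change of *Mcm2* was 1.74 (standard error 2.05, unadjusted p = 0.413) and that of *Mcm7* was 1.63 (standard error 1.52, unadjusted p = 0.306), with an adjusted p of 1.00 in edgeR's quasi-likelihood test for both. The low Gli1- values of *Mcm7* were in Gli1- replicates 2 and 3, the libraries with the fewest genes read. Of the 31-base stretches of *Mcm7*, 33.4% also occur in other genes, mostly *Gm5487*. In addition, 385 of its exonic bases overlap *Ap4m1* or *Cops6* on the other strand, and 172 overlap *Mir25* or *Mir93* on the same strand.

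The other 4 subunits of the hexamer did not separate the groups. *Mcm4* was at 94.7, 73.2, 31.5 and 89.2 CPM in Gli1+ libraries and at 51.2, 68.0 and 59.5 CPM in Gli1- libraries, with a log2 fold change of 0.28 (standard error 0.56). *Mcm6* was at 6.11, 8.15, 27.8 and 35.4 CPM in Gli1+ libraries and at 22.6, 16.4 and 10.2 CPM in Gli1- libraries. *Mcm5* was at 15.7, 20.02, 0 and 32.2 CPM in Gli1+ libraries and at 24.8, 20.7 and 0 CPM in Gli1- libraries. Gli1+ replicate 3 was low for *Mcm4* and *Mcm5* and high for *Mcm6*, so the libraries did not rank the subunits alike. The log2 fold changes of *Mcm5* and *Mcm6* were 0.16 and 0.24 (standard errors 2.51 and 1.88), and both turned negative in some alternative fits. *Mcm3* was at 2.69, 0.728, 10.6 and 14.5 CPM in Gli1+ libraries, against 15.2, 0 and 0 CPM in Gli1- libraries. All 6 subunits had a fitted log2 fold change above 0 with standard errors of 0.56 to 3.07, where 65.3% of all genes tested were above 0. Those of *Mcm4*, *Mcm5* and *Mcm6* lay below the median of all genes, 0.30.
Per length, as CPKM (CPM per kilobase of exon), the subunits of the hexamer were at unequal levels. *Mcm4* averaged 20.1 ± 7.98 CPKM in Gli1+ MuSCs (SD, n = 4) and 16.6 ± 2.34 CPKM in Gli1- MuSCs (SD, n = 3). *Mcm7* followed with 13.8 ± 1.39 CPKM in Gli1+ and 4.45 ± 5.32 CPKM in Gli1- MuSCs, and *Mcm2*, *Mcm3*, *Mcm5* and *Mcm6* averaged 1.90 to 4.26 CPKM in Gli1+ and 0.952 to 3.80 CPKM in Gli1- MuSCs. The SDs of *Mcm5* and *Mcm6* overlapped in both groups, and their order is not resolved.

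**Figure D4:**
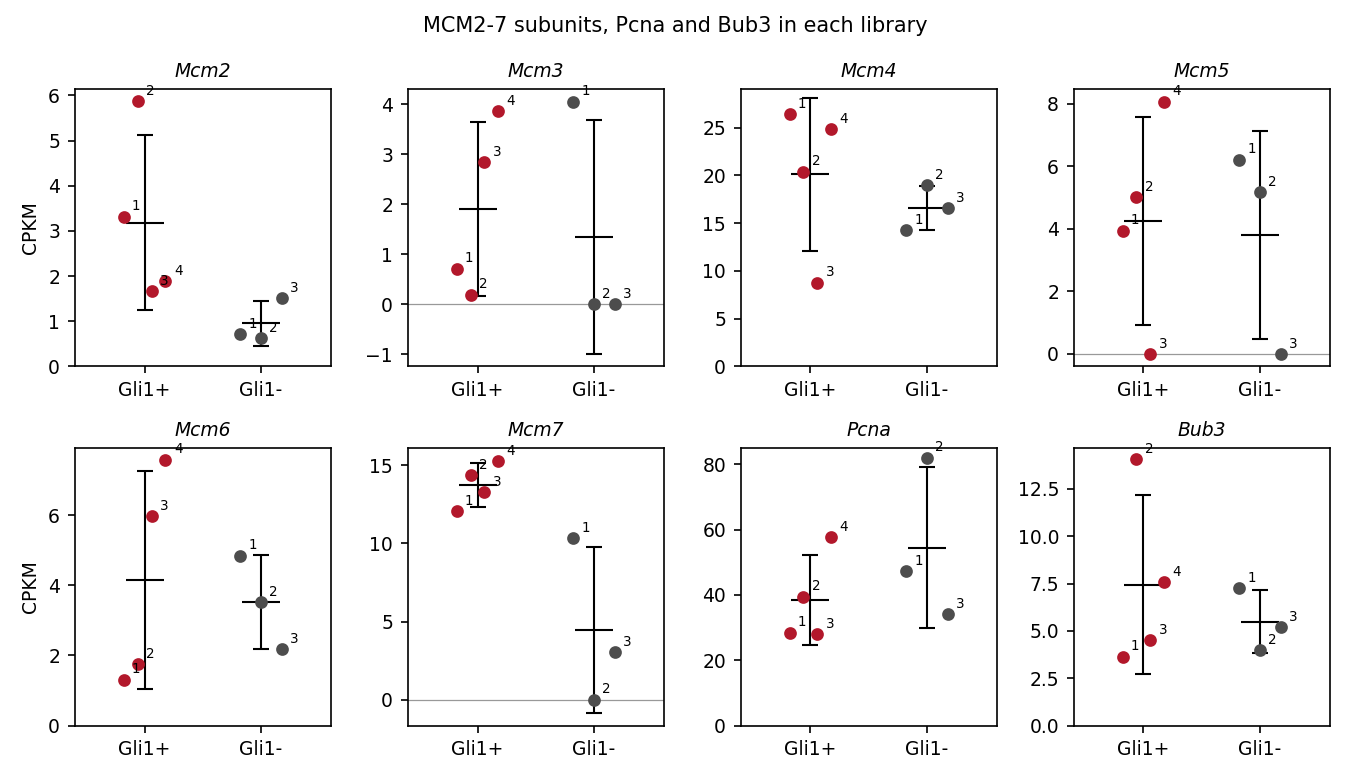
Level of the 6 MCM2-7 subunits, Pcna and Bub3 in CPKM, with Gli1+ libraries left of Gli1- libraries, the replicate number beside each point, and the mean and SD as a bar with whiskers. The groups are apart for Mcm2 and Mcm7 and overlap for the other 6 genes, and Pcna is highest in Gli1- replicate 2, at 82.0 CPKM.

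*Pcna*, the sliding clamp of the DNA polymerases (ENSMUSG00000027342, chr2:132249162-132253314), had the highest level per length of the members in both groups and was the abundant member that leaned the other way. It was at 68.3, 94.8, 67.4 and 138 CPM in Gli1+ replicates 1 to 4, against 114, 197 and 82.0 CPM in Gli1- replicates 1 to 3. Its log2 fold change was -0.50 (standard error 0.43, unadjusted p = 0.258, adjusted p = 1.00 in edgeR's quasi-likelihood test), and it was below 0 in every alternative, from -0.79 to -0.085. The groups overlapped, and the highest value was in Gli1- replicate 2. Of its 31-base stretches, 23.3% also occur in other genes, mostly *Pcna-ps2*. The polymerase subunits *Pold1* and *Pole* had log2 fold changes of -0.41 and 0.46 (standard errors 2.57 and 2.61), each with a library at 0 in at least 1 group. *Prim1*, the primase, was read in Gli1+ replicate 4 alone, at 16.6 CPM.

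Genes of nucleotide synthesis fell into a steady gene and 3 sparse ones. *Rrm1*, the large subunit of ribonucleotide reductase, was at 19.2, 36.4, 36.5 and 66.9 CPM in Gli1+ libraries and at 30.0, 19.99 and 17.7 CPM in Gli1- libraries. *Rrm2*, the subunit whose level cycles, was at 6.39, 20.2, 0 and 14.2 CPM in Gli1+ libraries and at 1.41, 0 and 0 CPM in Gli1- libraries. Its log2 fold change was 4.41 (standard error 3.70, unadjusted p = 0.255), and the groups overlapped in Gli1+ replicate 3. *Tyms*, thymidylate synthase, was read at 14.8 CPM in Gli1+ replicate 1 and 26.1 CPM in replicate 4 and unread elsewhere. Its Gli1+ mean was 54.9 times the floor, with an unadjusted p of 0.0541 in edgeR's quasi-likelihood test. *Tyms* passed the filter through its Gli1+ reads alone and so had to be higher there. *Tk1*, thymidine kinase, had 4.43 CPM in Gli1+ replicate 4 and 4.60 CPM in Gli1- replicate 1.

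Of the genes that license and fire origins, *Cdt1*, which loads the helicase, was read in all 4 Gli1+ libraries at 4.18 to 8.16 CPM and in Gli1- replicate 1 at 10.6 CPM. *Gmnn* (geminin), which inhibits *Cdt1*, had 7.25 CPM in Gli1+ replicate 4 and no other read. *Gins1*, part of the active helicase, had 7.41 CPM in Gli1+ replicate 1 and 12.1 CPM in replicate 2 and was unread elsewhere. Its Gli1+ mean was 26.2 times the floor, with an unadjusted p of 0.0678 in edgeR's quasi-likelihood test. *Gins1* too passed the filter through its Gli1+ reads alone and had to be higher there. *Cdc45*, its partner, had 10.05 CPM in Gli1+ replicate 2 and 20.5 CPM in Gli1- replicate 2. *E2f1*, a transcription factor of the G1 to S transition, had 16.7 CPM in Gli1+ replicate 4, and *Ccne1*, cyclin E1, had 7.72 CPM in Gli1+ replicate 2. *Uhrf1*, which keeps DNA methylation through replication, had 19.1 CPM in Gli1+ replicate 4 and 2.0 CPM in Gli1- replicate 1. *Ccne2*, cyclin E2, was read in 3 Gli1+ libraries and 1 Gli1- library, and 609 of its exonic bases overlap *Ints8* on the other strand.

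Over the phases, 14 of 18 S phase members and 7 of 8 G2 and M phase members had a log2 fold change above 0, as did 65.3% of all genes. The median log2 fold change was 0.48 for S phase, 7.13 for G2 and M phase and 0.30 for all genes. The G2 and M phase median rests on genes unread in Gli1- libraries, whose fitted fold depends on the prior count, and was 4.97 with such genes at their floor. Since members that passed the filter through Gli1+ alone had to be higher, neither median is evidence on its phase. The 8 genes tested are also the better read G2 and M phase members, as the 8 others with a read were each read in 1 library.

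The summed level takes in all members with a row, unfiltered. For G2 and M phase it was 12.8, 28.0, 8.24 and 47.6 CPKM in Gli1+ replicates 1 to 4, against 9.49, 9.67 and 7.25 CPKM in Gli1- replicates 1 to 3. For S phase it was 96.6, 119, 69.0 and 161 CPKM in Gli1+ replicates 1 to 4, against 101, 124 and 64.2 CPKM in Gli1- replicates 1 to 3. Both sums overlapped between the groups, and Gli1+ replicate 4 was highest in each. The ratio of the group means was 2.75 for G2 and M phase and 1.16 for S phase, and without Gli1+ replicate 4 it was 1.86 and 0.986. G2 and M phase members made up 11.7%, 19.0%, 10.7% and 22.8% of the summed level of both phases in Gli1+ replicates 1 to 4, against 8.62%, 7.22% and 10.1% in Gli1- replicates 1 to 3. These shares did not overlap, but the margin was 10.7% in Gli1+ replicate 3 against 10.1% in Gli1- replicate 3. They overlapped when CPM was summed in place of CPKM and when *Pcna* and *Bub3*, the largest terms, were left out. The difference between the phases was not tested, since genes are not replicates.

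**Figure D5:**
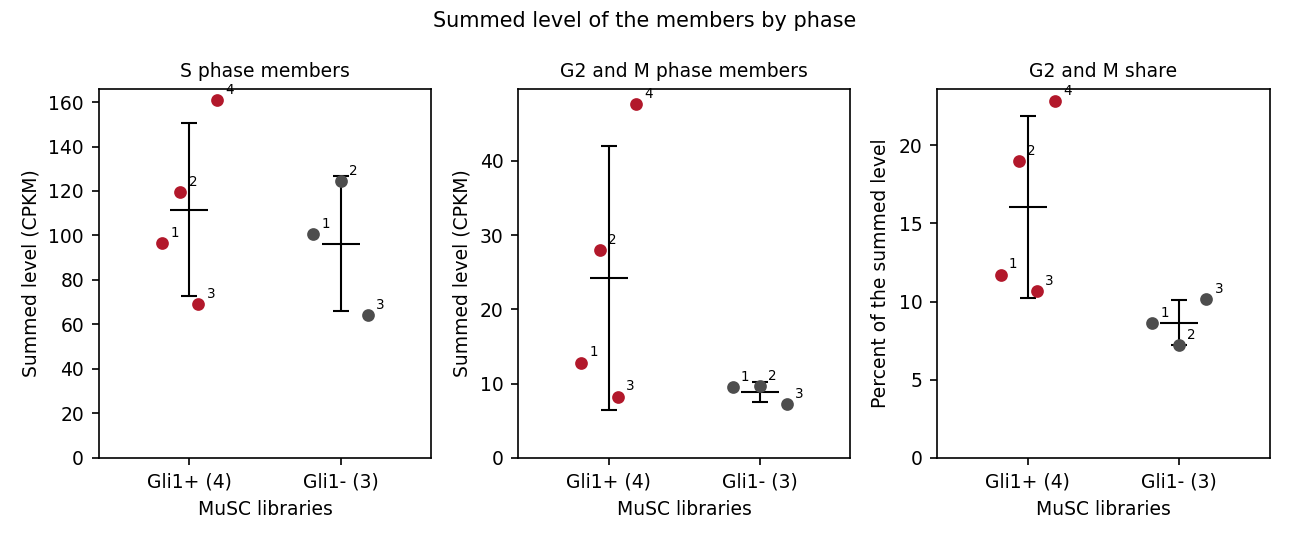
Summed level of S phase members, summed level of G2 and M phase members (both in CPKM), and the percent of the total that came from G2 and M phase, with Gli1+ libraries left of Gli1- libraries, the replicate number beside each point, and the mean and SD as a bar with whiskers. Gli1+ replicate 4 is highest in all 3 panels, and the sums overlap between the groups while the shares, 10.7% to 22.8% against 7.22% to 10.1%, do not.

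Genes around the members gave no call either. Of 37 other S phase genes tested, 25 leaned higher and 12 lower in Gli1+ MuSCs (median log2 fold change 0.46), a share of 67.6% higher against 65.3% of all genes, and 0 had an unadjusted p under 0.05. Of 22 other G2 and M phase genes tested, 17 (77.3%) leaned higher and 5 lower (median 0.80), and 0 had an unadjusted p under 0.05. No Gli1- library had a read of 3 of these 22 or of 2 of the 37, against 3.83% of all genes tested. Such genes had to be higher in Gli1+ MuSCs. The genes of smallest p were *Rpa3* (of replication protein A), *Cdc7* (a kinase that fires origins) and *Gins4* (of the active helicase) in S phase, and *Spc25*, *Ncaph* and *Nek2* (a centrosome kinase) in G2 and M phase. *Spc25*, a kinetochore protein, was at 0, 0, 11.6 and 20.7 CPM in Gli1+ replicates 1 to 4, *Ncaph*, of condensin, at 10.1, 10.1, 0 and 0 CPM, and both were unread in Gli1- libraries. Their Gli1+ reads were thus in different libraries.
The 19 genes of cell cycle transcription tested were of E2F, Rb, DREAM, FoxM1 and NF-Y, and the gene of B-Myb was not among them. Of the 19, 14 (73.7%) leaned higher and 5 lower. An unadjusted p under 0.05 was found for 1 of them, where 1.53% of all genes were higher at that p. That gene was *Rbbp4*, a histone chaperone of the MuvB core, at 235, 221, 174 and 282 CPM in Gli1+ libraries and 185, 96.6 and 93.4 CPM in Gli1- libraries. Its log2 fold change was 0.87 (standard error 0.36, unadjusted p = 0.0317, adjusted p = 1.00 in edgeR's quasi-likelihood test), and the groups overlapped in Gli1+ replicate 3 and Gli1- replicate 1. *Foxm1*, the activator of G2 and M phase genes, had 5.93 CPM in Gli1+ replicate 1 and 3.86 CPM in replicate 2 and was unread elsewhere, Gli1+ replicate 4 included.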

How the data were processed

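RNA-seq counts were analysed for 7 libraries, grouped by their labels into 4 of Gli1+ and 3 of Gli1- MuSCs. The authors deposited raw counts per gene, which were used as given. Their methods give STAR on GRCm38 transcripts and tximport, whereas CASAVA and HISAT2 2.0.5 stand in the submitters' processing notes. The 14 columns of normalized values per library and the authors' own fold changes and p-values were not used.

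Genes with 5 or more reads in at least 2 libraries (11134 of 13280) were fitted with edgeR 4.0.16 in R 4.3.3 (TMM, robust quasi-likelihood test, two-sided), with Benjamini-Hochberg adjustment of p and a threshold of 0.05. CPM used TMM library sizes, and CPKM divides CPM by the kilobases of the exon union of GENCODE M21 (GRCm38). DESeq2 1.42.0, limma-voom (limma 3.58.1), other scalings and filters, a non-robust fit, a block for the replicate number and each library left out in turn were the alternatives. On data simulated with the same spread for every gene, edgeR recovered nearly all changes at a low spread. It recovered none at a spread close to the common one of these libraries, where DESeq2 and limma-voom made mostly false calls. Spread in these libraries need not be the same for every gene, so those rates may not carry over. An absence of calls does not show equal levels. No exact permutation test of 4 libraries against 3 can give a two-sided p below 0.0571.

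The members, their phases and the other lists were chosen with earlier results of these data known. Named are, per phase, the 5 members of smallest p and the 5 of highest mean CPKM, members whose groups do not overlap and members at an unadjusted p under 0.05. The other members are given with single values, and the 3 genes of smallest p of each other list may be named. Same-numbered libraries of the groups deviated together weakly or not at all, with r of 0.211, -0.095 and 0.068. Differently numbered libraries of the 2 groups had r of -0.215 to 0.135, so the value for replicate 1 was the highest. No source used here says if same-numbered libraries share mice, and they were not treated as pairs.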

Additional observations from a re-analysis of the deposited data

Results flagged for a closer look

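Among the 38 members with a read, 13 had 1 Gli1+ library far from the other 3, with a gap of 1 times the whole range of the 4 libraries, because 3 libraries were at 0 and 1 was not. Chance flags about 1 in 20 groups, and a gene read in 1 of 4 libraries always meets this criterion. The library was Gli1+ replicate 4 for *Ccnb2*, *Bub1*, *Ube2c*, *Ccna2*, *Tpx2*, *Gmnn*, *Prim1*, *E2f1*, *Tk1* and *Uhrf1*, at 3.53 CPM for *Bub1* to 19.1 CPM for *Ccna2*. It was Gli1+ replicate 3 for *Nusap1* (2.27 CPM) and Gli1+ replicate 2 for *Cdc45* (10.05 CPM) and *Ccne1* (7.72 CPM). Of these, *Tk1*, *Uhrf1* and *Cdc45* also had a read in 1 Gli1- library.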

How the results depend on the processing

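No member was called at an adjusted p under 0.05 in any of the 15 alternative fits. DESeq2 called 64 genes higher and 2 lower, and leaving out each library gave 0 to 2 genes higher, in each case against 0. The count of members at an unadjusted p under 0.05, 4 in the fit reported, was 2 with no filter, 1 with limma-voom, 0 without robust estimation and 0 to 3 with a library left out. With no filter 16 G2 and M phase members were fitted and 13 had a log2 fold change above 0, and the S phase median was 0.82. Of those 16, 10 were unread throughout the Gli1- group and so had to be higher in Gli1+ MuSCs. Gli1+ replicate 4 alone supplied the reads of 5 of the 10. The share of all genes above 0 in that fit is not given here, so the 13 are no evidence on the phase. With limma-voom the median log2 fold change was 2.41 for S phase, 5.70 for G2 and M phase (difference 3.29) and 0.93 for all genes. With the replicate number as a block, 0 genes were called and 0 members had an unadjusted p under 0.05. Same-numbered libraries are not known to share more than the number. In that fit the S phase median was 1.16, the difference of the medians 5.15 and the median of all genes 0.52. There *Mcm5* and *Mcm6* were at -0.30 and -0.54. *Mcm6* was at -0.27 with limma-voom.

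With a library left out in turn, the S phase members above 0 were 9 to 14, of 15 to 18 tested. They were 9 of 15 without Gli1+ replicate 4 and 10 of 18 without Gli1- replicate 3. In the fit reported, 65.3% of all genes were above 0. The S phase median was 0.16 to 0.87, the G2 and M phase median 6.78 to 9.31 and their difference 6.10 to 8.44. The median of all genes was 0.16 to 0.63. The log2 fold change was -0.068 to 0.70 for *Bub3*, -0.42 to 0.69 for *Mcm5* and -0.24 to 0.54 for *Mcm6*. The mean of S phase members read was 13.7 to 16.3 in Gli1+ and 8 to 11.5 in Gli1- libraries, and that of G2 and M phase members 5.33 to 8.33 in Gli1+ and 2.5 to 4 in Gli1- libraries. Members unread in Gli1- libraries numbered 3 to 11 for S phase and 5 to 11 for G2 and M phase. The ratio of summed levels was 0.986 to 1.35 for S phase (0.986 without Gli1+ replicate 4 and 0.992 without Gli1- replicate 3) and 1.86 to 3.35 for G2 and M phase. The G2 and M phase share was 13.8% to 17.8% in Gli1+ and 7.92% to 9.38% in Gli1- libraries.

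Without *Pcna* and *Bub3*, the largest terms, the ratio of summed levels was 1.75 for S phase and 5.05 for G2 and M phase. The G2 and M phase sums still overlapped, at 3.73 to 40.1 CPKM in Gli1+ and 2.03 to 5.67 CPKM in Gli1- libraries, highest in Gli1+ replicate 4. The G2 and M phase share was then 15.7% in Gli1+ and 7.40% in Gli1- libraries. On CPM the share was 21.5% in Gli1+ and 14.8% in Gli1- libraries. In the 150 bases before the start, 14.3% of S phase windows held an E2F site and 36.4% of G2 and M phase windows a CHR. The cause of these shifts was not tested. Of the G2 and M phase members' values 72.1% were 0, and of the S phase members' values 42.2%.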
